A study of Mus musculus with 6 samples.

Results

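A set of 10 genes of imprinted loci that act in fetal growth was followed across the Hepa1-6 midnolin knockdown libraries. Its members were found by gene name, and 10 of 10 were present among the 25078 genes of the count and RPKM tables: Igf2, H19, Dlk1, Meg3, Rian, Mirg, Peg3, Grb10, Igf2r and Plagl1. Hepa1-6 is an established mouse hepatoma line from the C57/L strain. RNA of 6 libraries was sequenced after ribosomal RNA depletion. One library came from parental cells with no treatment (wt). Another 2 came from cells that carried a lentiviral scramble vector (scr control, libraries 25-2 and 50-1), and 3 from cells that carried a lentiviral midnolin shRNA vector (knockdown, libraries 25-3, 50-2 and 50-5). All transduced cells had been through puromycin selection and limiting dilution for single-cell-derived colonies, while the wt cells are labelled as untreated. The study's methods and results describe RNA-seq of the knockdown clones sh1 and sh2 and of scr control, so the 3 knockdown libraries may come from fewer than 3 clones, and n counts libraries, not clones. The labels do not say which colony a library came from, so differences between colonies and between the vectors cannot be told apart, and p-values measure only the spread between these libraries.

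An imprinted gene is transcribed mainly from the copy inherited from one parent, and a stretch of DNA methylated in only one parental germ line keeps the copies apart. Many imprinted genes set the rate of growth before birth. Igf2 encodes a growth factor made in large amounts by fetal liver, Igf2r encodes the receptor that takes it up for breakdown, and Grb10 encodes an adaptor that dampens signaling from the insulin and IGF receptors. H19, Meg3, Rian and Mirg are noncoding RNAs read from the maternal copy, and Dlk1, Peg3 and Plagl1 are read from the paternal copy. In the mouse, Igf2r is read from the maternal copy, and transcription of the antisense noncoding RNA Airn silences it on the paternal copy. Igf2, H19 and Dlk1 fall after birth in normal liver and return in some liver tumors.

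One of the 10 genes rose in knockdown cells, and most of the others were not detectable or nearly so. Igf2r was 2.60-fold higher in knockdown than in scr control libraries. Igf2 was present at a low level that varied more among libraries of a group than between groups, and Grb10 and H19 were lower still. Dlk1, Meg3, Mirg and Plagl1 had 0 reads in all 6 libraries. Rian and Peg3 had at most 1 read in any library.

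Promoter sequences of the pair on which the first result turns, Igf2r and its antisense partner Airn, and of Meg3, from a locus with almost no reads, are given first. They are RefSeq sequence of build GRCm38.p6, from 250 bases before to 50 bases after the annotated start, in the direction of transcription, and they are reference sequence, not that of the Hepa1-6 genome. RefSeq gave such a window for 9 of the 10 genes. Capitals mark CACGTG (an E-box), TGCCGC (the core bound by the imprint factor ZFP57) and TATAAA, each searched on both strands, where TGCCGC reads as GCGGCA and TATAAA as TTTATA. In Meg3, TTTATA and TATAAA overlap.
Igf2r, chr17:12769657-12769956, minus strand: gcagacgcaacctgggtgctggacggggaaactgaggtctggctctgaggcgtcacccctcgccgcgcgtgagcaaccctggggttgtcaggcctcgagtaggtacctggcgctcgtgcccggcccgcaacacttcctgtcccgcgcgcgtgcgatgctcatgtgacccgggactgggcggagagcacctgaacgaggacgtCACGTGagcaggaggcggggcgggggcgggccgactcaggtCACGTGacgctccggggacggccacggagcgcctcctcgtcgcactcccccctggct
Airn, chr17:12741061-12741360, plus strand: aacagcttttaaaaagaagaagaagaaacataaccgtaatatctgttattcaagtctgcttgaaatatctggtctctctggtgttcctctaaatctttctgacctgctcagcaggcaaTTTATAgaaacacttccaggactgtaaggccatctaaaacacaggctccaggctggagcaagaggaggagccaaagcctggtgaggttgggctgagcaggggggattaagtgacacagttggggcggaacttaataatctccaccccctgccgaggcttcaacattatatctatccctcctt
Meg3, chr12:109540746-109541045, plus strand: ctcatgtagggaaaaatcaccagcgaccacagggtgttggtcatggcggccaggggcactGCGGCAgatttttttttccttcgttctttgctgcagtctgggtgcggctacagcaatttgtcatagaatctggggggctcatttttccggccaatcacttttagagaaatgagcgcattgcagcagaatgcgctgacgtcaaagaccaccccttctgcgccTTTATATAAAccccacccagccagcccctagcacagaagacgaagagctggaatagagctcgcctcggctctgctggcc

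The Igf2r window is CpG-rich, with 34 CpG and 70.7% G and C, against a median of 7 CpG over 32851 windows of the same length. It holds CACGTG at positions -48 and -7 from the start. At least 1 CACGTG stands in 7.15% of all windows, and 2 or more stand in 0.594%. The Airn window has 3 CpG and a TTTATA at position -132. The printed Meg3 window has 13 CpG, a GCGGCA at position -190, and the overlapping TTTATA and TATAAA at positions -29 and -25. A window at another annotated start of Meg3, chr12:109545148-109545447, has 1 CpG and 0 of these matches. TGCCGC on either strand stands in 11.6% of all windows and TATAAA in 13.6%. These matches describe the letters of the windows, and binding was not measured.

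The targeted gene was looked at first. Midn, which encodes midnolin, had an RPKM (reads divided by exon length in kilobases and by the library's size, which the TMM method of edgeR had scaled) of 60.5 in wt, 59.6 and 50.8 in the scr control libraries, and 20.3, 21.8 and 22.1 in the knockdown libraries, so all 3 knockdown libraries lay below the other libraries. Its log2 fold change, knockdown minus scr control, was -1.38 (SE, or standard error, 0.133, FDR 0.00777, edgeR quasi-likelihood test). Total counts ran from 25586301 to 33119710 per library, of which the ribosomal transcript Rn45s took 10.1% to 13.1%. Of 14 hepatocyte or hepatoma markers, 13 had an RPKM over 1 in some library and Serpina1a had 0 reads. Their summed RPKM was 5757 in wt, 3445 to 4390 in scr control and 970 to 1968 in knockdown, a sum carried mostly by Alb, Afp, Trf and Krt18. Of the 14, 4 were lower in every knockdown than in every scr control library and 2, Krt18 and Apob, were higher. The summed RPKM of 8 immune markers was 4.53 in wt, 4.52 to 5.24 in scr control and 9.26 to 14.3 in knockdown, with Cd3e at 0. Cd68 and Csf1r carried most of it, and 4 of the 8 were higher in every knockdown than in every scr control library while 1, Itgam, was lower. Among 10 fibroblast or stellate markers, whose sum was 1032 in wt, 563 to 595 in scr control and 411 to 576 in knockdown, nearly all of the signal came from Dcn. The sum of 7 endothelial markers was at most 0.371 outside wt and 2.89 in wt, with Lyve1 at 0. That of 6 cholangiocyte markers was 234 in wt, 205 to 565 in scr control and 379 to 554 in knockdown. The part of these marker levels in the results below was not tested. In these bulk libraries, fewer expressing cells and less RNA per cell cannot be told apart.

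**Figure D1:**
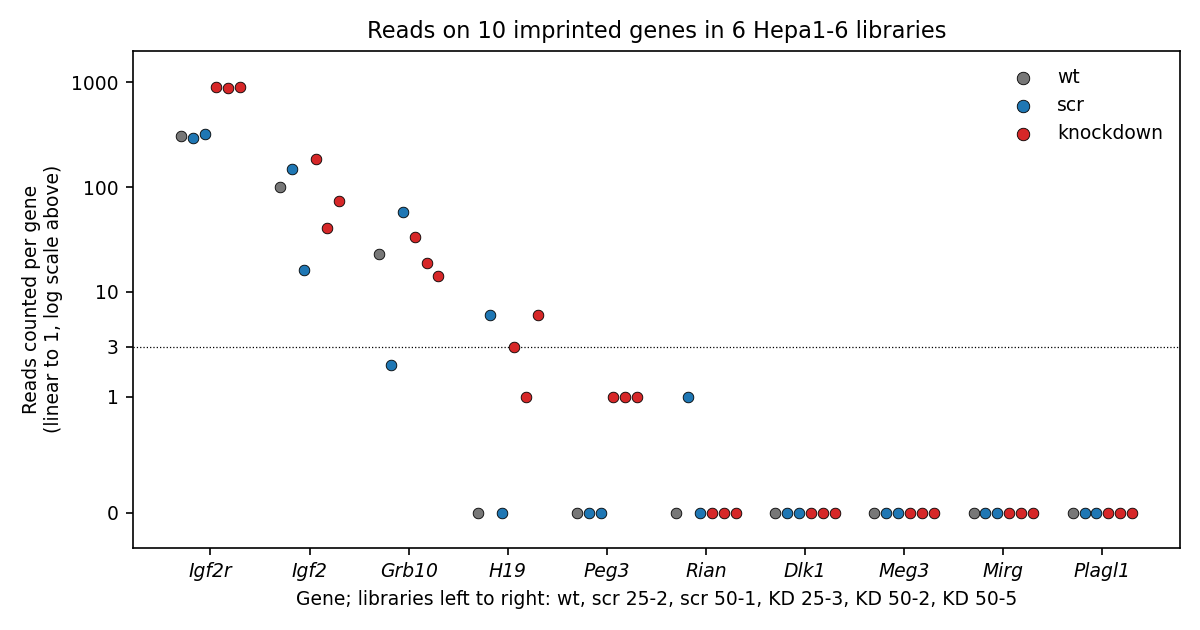
Reads counted per gene (vertical axis, linear to 1 and logarithmic above) for the 10 genes, ordered by total reads, with 1 point per library from left to right wt, scr 25-2, scr 50-1, knockdown 25-3, 50-2 and 50-5. The dotted line marks 3 reads. The knockdown points of Igf2r lie at 889 to 903 reads, above the wt and scr control points, while the groups overlap in Igf2, Grb10 and H19.

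A gene entered the test of knockdown against scr control when its RPKM was over 1 in at least 1 of those 5 libraries, which 11577 genes met. A gene was called at an FDR under 0.05 and a fold change of at least 1.5. Of the 10 growth genes, 2 met the filter, Igf2r and Igf2, and 1 of them was called, Igf2r, which was up. Over all tested genes 1230 were called, or 10.6%, with 625 up (5.4%) and 605 down (5.23%). An unadjusted p under 0.05 was reached by 31.5% of them, and DESeq2 called 20.1%. The other 8 genes missed the filter, and 6 of the 10 had at most 3 reads in every library, against 40.1% of all genes in the table.

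Igf2r (chromosome 17 of mm10, 12682406 to 12769706, minus strand) encodes the cation-independent mannose 6-phosphate receptor, which clears IGF2 from the cell surface and carries newly made lysosomal enzymes. It had 309 reads in wt, 294 and 322 in scr control libraries 25-2 and 50-1, and 903, 889 and 894 in knockdown libraries 25-3, 50-2 and 50-5. In RPKM this was 1.33 in wt, 1.12 and 1.27 in scr control, and 3.20, 3.08 and 3.03 in knockdown. The wt and scr control values lay together, and every knockdown value lay above them with little spread. The groups did not overlap, as was the case for 50.2% of all tested genes. Mean RPKM was 1.19 ± 0.104 (SD, n = 2) in scr control and 3.10 ± 0.0898 (SD, n = 3) in knockdown. The log2 fold change was 1.37 (SE 0.160, 95% interval 0.97 to 1.76, FDR 0.0105, edgeR quasi-likelihood test). The difference was larger than the spread between libraries of a group. Without knockdown library 25-3 the log2 fold change was 1.34 and the FDR 0.0600, and without knockdown library 50-2 they were 1.38 and 0.0715. The call was lost in both fits while the size of the change was kept. Over the whole table those fits, which hold fewer libraries, called 259 and 131 genes, against 1230.

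Airn (chromosome 17 of mm10, 12741311 to 12859884, plus strand) starts inside Igf2r and runs out past its promoter. It was named after its values were seen, because it overlaps the only growth gene that was called. It had 175 reads in wt, 321 and 341 in scr control, and 174, 205 and 276 in knockdown. Its RPKM was 3.07 in wt, 4.98 and 5.47 in scr control, and 2.52, 2.90 and 3.81 in knockdown. The scr control values were the highest, while wt lay among the knockdown values. The log2 fold change from scr control to knockdown was -0.78 (SE 0.254, 95% interval -1.40 to -0.15, FDR 0.104, edgeR quasi-likelihood test), which did not pass the threshold.

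In RPKM, the ratio of Igf2r to Airn was 0.433 in wt, 0.224 and 0.231 in scr control, and 1.27, 1.06 and 0.794 in knockdown. Airn thus stood above Igf2r in wt and both scr control libraries, and Igf2r stood above Airn in 2 of 3 knockdown libraries. The strand setting of the counting was not stated, and both RNAs cross the same stretch of 28.4 kb. In the GENCODE annotation, which is not the RefSeq annotation of the counts, their exons share 0 bases, and 519 of 9308 exon bases of Igf2r, or 5.58%, lie inside Airn. By this annotation, reads from unspliced Airn could fall on that stretch of Igf2r. Which parental copy the reads came from was not measured.

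**Figure D2:**
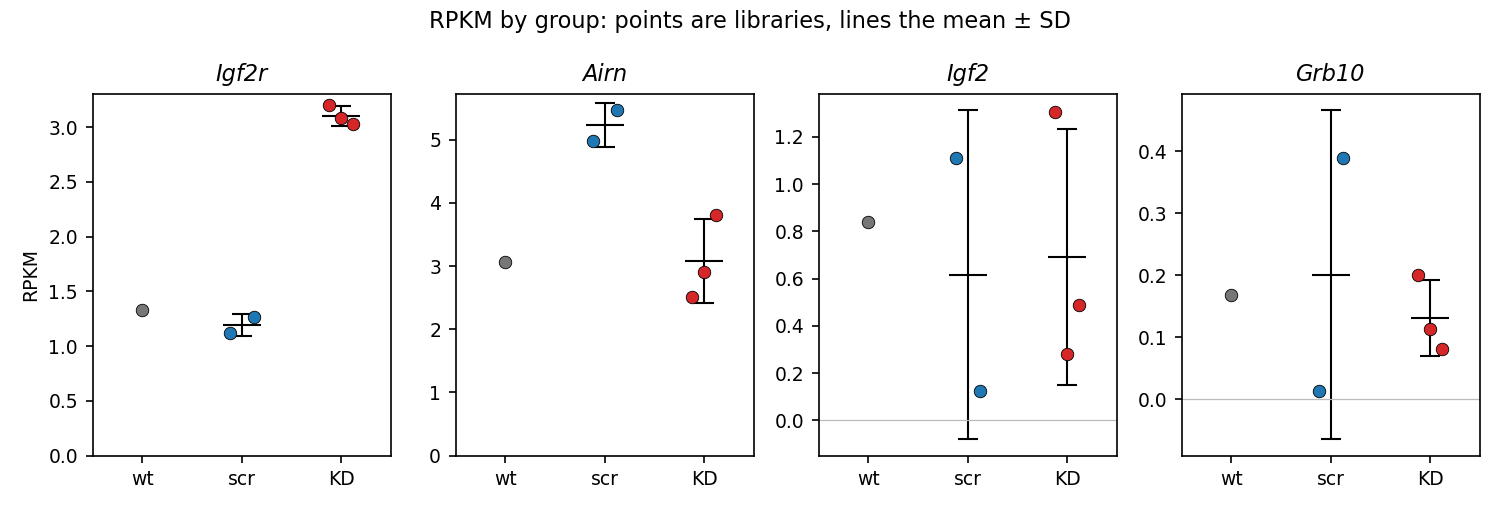
RPKM (vertical axes, 1 scale per gene) of Igf2r, Airn, Igf2 and Grb10 in wt, scr control (scr) and knockdown (KD) libraries; points are libraries, and the long lines and bars are the mean ± SD of groups with 2 or more libraries. Igf2r was 1.12 and 1.27 in scr control and 3.03 to 3.20 in knockdown, Airn was lower in knockdown than in scr control, and the groups overlap in Igf2 and Grb10, where the scr control SD reaches below 0 because the bar is symmetric.

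The tested genes around Igf2r showed no shared shift in the median. In a window of 1 Mb centered on it, 8 other genes were tested and their median log2 fold change was -0.03. In a window of 10 Mb, 32 other genes were tested and the median was -0.01, as over all tested genes. Of these 32, edgeR called 0, 4 had an unadjusted p under 0.05, against 31.5% of all tested genes, and DESeq2 called 2, against 20.1%. The organic cation transporter gene Slc22a3, which Airn also silences in placenta, had 0 reads in all libraries.

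**Figure D3:**
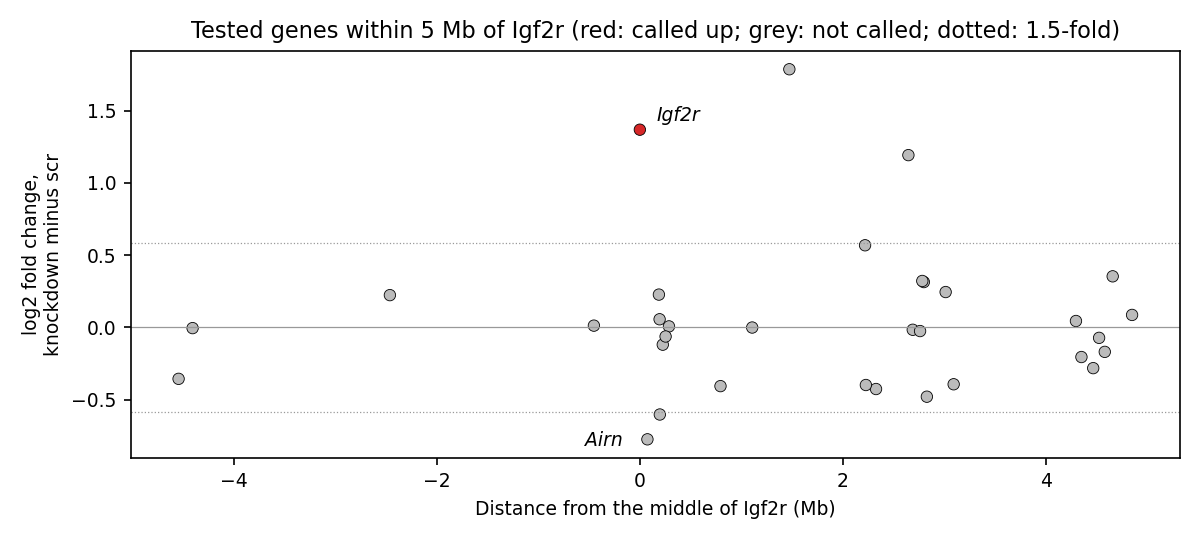
Log2 fold change of knockdown against scr control (vertical axis) for tested genes by distance from the middle of Igf2r (horizontal axis, Mb); red is called up, grey is not called, and dotted lines mark 1.5-fold. Igf2r at 1.37 is the called gene of the window, and Airn lies at -0.78.

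By a correlation of log2(RPKM + 0.1) over the 6 libraries, the genes most like Igf2r among 11646 compared were Adh7 (r = 0.9994), Tmem88 (r = 0.9986) and Anp32b (r = 0.9985). Adh7 encodes an alcohol dehydrogenase that also acts on retinol, and Anp32b encodes a histone chaperone. Adh7 had 11 reads in wt, 3 and 7 in scr control, and 402, 385 and 333 in knockdown. Anp32b had an RPKM of 81.6 in wt, 75.0 and 78.1 in scr control, and 121.9, 118.2 and 115.0 in knockdown, on a far higher level than Igf2r. A correlation of at least 0.95 was reached by 405 genes, and since the 6 points fall in the same groups, this describes a shared step between groups and little more.

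The M6pr gene, which encodes the other mannose 6-phosphate receptor and is not imprinted, had an RPKM of 73.0 in wt, 52.0 and 70.6 in scr control, and 74.1, 69.4 and 61.3 in knockdown. Its groups overlapped, and its log2 fold change of 0.14 (95% interval -0.29 to 0.57, FDR 0.615, edgeR) was not called.

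Igf2 (chromosome 7 of mm10, 142650768 to 142666816, minus strand) had 99 reads in wt, 148 and 16 in scr control libraries 25-2 and 50-1, and 187, 41 and 73 in knockdown libraries 25-3, 50-2 and 50-5. Its RPKM was 0.839 in wt, 1.11 and 0.124 in scr control, and 1.31, 0.280 and 0.487 in knockdown. The highest value of scr control was 8.95 times the lowest, and that of knockdown 4.67 times. The groups overlapped, and the log2 fold change was 0.14 (SE 1.02, 95% interval -2.37 to 2.65, FDR 0.942, edgeR). That interval holds changes of several fold in either direction, so a difference of such size was not detectable. The sign followed single libraries, with -0.71 without knockdown library 25-3, -0.70 without scr control library 50-1 and 2.47 without scr control library 25-2.

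The 2 libraries with the most Igf2 reads were those whose titles carry the number 25, 1 of each group. Within that pair the knockdown RPKM was 1.31 and the scr control RPKM 1.11. Within the libraries titled 50, the knockdown values of 0.280 and 0.487 lay above the scr control value of 0.124. With the number as an added term, the log2 fold change was 0.93 and was not called. What the numbers 25 and 50 stand for was not stated in the labels.

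H19 (chromosome 7 of mm10, 142575530 to 142578146, minus strand), the noncoding RNA that shares its enhancers with Igf2, had 0 reads in wt, 6 and 0 in scr control, and 3, 1 and 6 in knockdown. Its RPKM did not pass 0.0891 in any library. Igf2 reads outnumbered H19 reads in all 6 libraries, and the highest ratio of H19 to Igf2 reads was 0.0822. The 91.29 kb from H19 to Igf2 held 4 rows of the table with 580 reads in all, since the rows of Mir483, inside Igf2, and Mir675, inside H19, had 0.

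Grb10 (chromosome 11 of mm10, 11930499 to 12037420, minus strand) had 23 reads in wt, 2 and 58 in scr control libraries 25-2 and 50-1, and 33, 19 and 14 in knockdown. The scr control libraries were thus the lowest and the highest of all 6, with RPKM values of 0.0130 and 0.389, while knockdown lay between them at 0.200, 0.112 and 0.0809. It missed the filter of the test. When no filter was set and 18673 genes were tested, the log2 fold change was -0.63 (95% interval -3.13 to 1.88, FDR 0.737, edgeR).

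In order of their mean RPKM over the 6 libraries, the detected growth genes were Igf2r (2.17), Igf2 (0.691), Grb10 (0.161) and H19 (0.0372). Igf2r stood above Igf2 in all 6 libraries, though scr control library 25-2 had 1.12 against 1.11. Igf2 stood above Grb10 in 5 of them, and in scr control library 50-1 the order was turned, with 0.124 for Igf2 and 0.389 for Grb10.

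The locus from Dlk1 to Dio3 on chromosome 12, which in fetal tissues yields one of the largest groups of imprinted noncoding RNAs, was close to silent. Dlk1 (mm10, 109452823 to 109463336), a Notch-related membrane protein of hepatoblasts, had 0 reads in all 6 libraries. Meg3 (109540996 to 109571729) and Mirg (109734981 to 109749457) also had 0, and Rian (109603945 to 109661711), the host of a cluster of small nucleolar RNAs, had 1 read, in scr control library 25-2. The 828.3 kb of the locus held 76 rows, of which 60 are microRNA genes, and 3 reads over all 6 libraries. Those 3 reads fell on Rian, on Rtl1, a retrotransposon-derived gene, and on Dio3, which encodes the thyroid hormone deiodinase. A count of 3 reads in a library would be an RPKM of at most 0.0239 for Dlk1, 0.00888 for Meg3 and 0.0886 for Mirg. A level below these was not detectable at this depth. Such limits cover counting error only, and reads that map to several places or to overlapping genes may not have been counted.

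Peg3 (chromosome 7 of mm10, 6705960 to 6730419, minus strand), a zinc finger gene, had 1 read in each knockdown library and 0 in wt and scr control, which is under the floor of 3 reads in every library. The 261.3 kb from Peg3 to Usp29 held 4 rows with 4 reads in all. Plagl1 (chromosome 10 of mm10, 13090832 to 13131694, plus strand), a zinc finger factor known as a regulator of other imprinted genes, had 0 reads in all 6 libraries, which allows an RPKM of at most 0.0216 in the shallowest library. Genes beside Plagl1 differed in level. Phactr2, named after its values were seen, had at most 6 reads in any library, while Sf3b5, a splicing factor subunit, had an RPKM of 33.3 to 69.0 over the libraries, and Ltv1, a ribosome assembly factor, of 17.3 to 28.5.

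Against the parental cells, neither tested growth gene differed by 1.5-fold from the scr control mean. The RPKM of wt over that mean was 1.11 for Igf2r and 1.36 for Igf2. Of 11211 genes with an RPKM over 1 in wt or scr control, 17.3% lay past 1.5-fold. With 1 wt library this difference has no replicate check. Set against scr control library 50-1 alone, Igf2 passed 1.5-fold.

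Genes of 5 further lists were read from the same fit. Lsp1, Slc38a4 and Htra1, described below, and Adh7 and Tmem88, named above, met the filter only through knockdown libraries, where they were high. Igfals met it only through scr control library 25-2. For each of these genes to be tested, it thus had to differ between the groups. Of 29 neighbors of the 10 genes present in the table, 11 were tested, 1 was called and it was up, against 10.6% of all tested genes called, with a median log2 fold change of 0.28 against -0.01 over all tested genes. These neighbors are a chosen list and not every gene nearby. In windows of 1 Mb centered on the 10 genes, called genes lay only around Igf2, H19 and Peg3. Around Igf2, 1 of 5 other tested genes was called up and 1 down, and around Peg3, 1 of 4 was called up and 0 down. The called neighbor of the list was Lsp1, which encodes an actin-binding protein of leukocytes and lies 80.66 kb from H19. It had 6 reads in wt, 3 and 4 in scr control, and 127, 65 and 292 in knockdown. All knockdown libraries were above the others, with a log2 fold change of 5.30 (SE 0.886, FDR 0.0234, edgeR), and 4 of the 8 immune markers, among them Cd68 and Csf1r, were also higher in every knockdown library, while Itgam was lower and Adgre1 had 0 reads there. Ptprc, another of the 8, had an RPKM of at most 0.16 in any library. What these marker levels mean for Lsp1 was not tested. The call was lost without scr control library 50-1 (FDR 0.0560) or knockdown library 25-3 (FDR 0.0753), and the log2 fold change dropped to 4.58 without knockdown library 50-5, which had the most reads. Among the most expressed neighbors, Fignl1, on chromosome 11 near Grb10, had a log2 fold change of 0.36 (FDR 0.208), Ltv1 of 0.38 (FDR 0.205) and Sf3b5 of 0.28 (FDR 0.494). Without scr control library 25-2, which leaves 1 scr control library, the log2 fold change was 0.63 for Ltv1 and 0.77 for Sf3b5.

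Of 60 other genes listed as imprinted and present in the table, 10 of which are also in the list of neighbors, 25 were tested. Of these, 1 was called up and 2 were called down, against 5.4% and 5.23% of all tested genes, with a median log2 fold change of -0.24. Whether they are read mainly from a single parental copy in these cells was not measured, so these values describe levels only. In this list 13 of 60 genes, or 21.7%, had 0 reads in all 6 libraries, against 24.6% of all genes. Among these 13 were the cyclin-dependent kinase inhibitor gene Cdkn1c, Ndn, Magel2 and Peg10.

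Slc38a4 (chromosome 15), a paternally expressed amino acid transporter gene of liver and placenta, had 42 reads in wt, 7 and 2 in scr control, and 1739, 763 and 1687 in knockdown. Its RPKM in knockdown was 13.2, 5.67 and 12.2, against 0.387 in wt and at most 0.0571 in scr control. The log2 fold change was 8.07 (SE 0.700, 95% interval 6.34 to 9.81, FDR 0.00618, edgeR). It was 7.47 without scr control library 50-1, which leaves the 7 reads of library 25-2. Without scr control library 25-2, which leaves the 2 reads of library 50-1, it was 9.19, so its size rests on a few scr control reads. With wt added to scr control it was 6.11.

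Kcnq1ot1 (chromosome 7 of mm10, 143213111 to 143296547), the antisense noncoding RNA that silences the neighbors of Kcnq1 on the paternal copy, had an RPKM of 6.06 in wt, 8.69 and 11.7 in scr control, and 5.22, 5.06 and 5.14 in knockdown. The knockdown libraries were the lowest, and wt lay closer to them than to scr control. The log2 fold change was -1.0 (SE 0.158, FDR 0.0201, edgeR). With wt added to scr control it was -0.78 and no longer called (FDR 0.0655), and the call was lost without any 1 knockdown library (FDR 0.0777 to 0.104).

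Atp10a, a phospholipid flippase gene, had an RPKM of 49.0 in wt, 49.2 and 55.9 in scr control, and 33.7, 37.6 and 31.9 in knockdown. The knockdown libraries lay below the others, with a log2 fold change of -0.62 (SE 0.132, FDR 0.0413, edgeR). This call was lost without scr control library 50-1 (log2 fold change -0.53, FDR 0.0832), without any 1 knockdown library (FDR 0.118 to 0.142), and with wt added to scr control (-0.58, under 1.5-fold). The most expressed genes of the list were Dcn, the matrix proteoglycan decorin (log2 fold change -0.28, FDR 0.336), Cd81, a tetraspanin (-0.38, FDR 0.257), and Gnas, the stimulatory G protein subunit (-0.06, FDR 0.803), and none of these 3 was called.

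In the list of 30 IGF axis genes, the ligand, receptors, binding proteins and adaptors that surround Igf2, Igf2r and Grb10, 19 were tested, 3 were called up and 2 down, against 5.4% and 5.23% of all tested genes, and the median log2 fold change was -0.05. The second ligand gene, Igf1, had at most 3 reads in any library. Among receptors, the insulin receptor gene Insr, whose protein also binds IGF2, had an RPKM of 15.8 in wt, 18.04 and 21.2 in scr control, and 11.1, 11.1 and 9.96 in knockdown. All knockdown values were below the others, and the log2 fold change was -0.89 (SE 0.131, FDR 0.0173, edgeR), a call lost without any 1 knockdown library (FDR 0.0681 to 0.0910).

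The type 1 IGF receptor gene Igf1r, through which IGF2 signals, missed the filter and was named after its values were seen. It had 0 reads in wt, 1 and 0 in scr control, and 17, 14 and 20 in knockdown, at an RPKM of at most 0.0505. The pooled rate of reads was 30.5 times higher in knockdown, with an exact 95% interval for counting error of 5.23 to 1226. When no filter was set, its log2 fold change was 4.63 (SE 0.901, FDR 0.0311, edgeR), a size that depends on the prior count. Ghr, the growth hormone receptor gene, had an RPKM of 1.02 in wt, 1.20 and 0.917 in scr control, and 3.41, 6.04 and 3.96 in knockdown. Its log2 fold change was 2.07 (SE 0.329, FDR 0.0204, edgeR), and the call was lost without any 1 knockdown library (FDR 0.0592 to 0.0743).

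Among the binding proteins and proteins that act on them, Igfals, which encodes the acid-labile subunit of the circulating IGF complex, fell. It had 85 reads in wt, 94 and 47 in scr control, and 0, 2 and 1 in knockdown. The pooled rate of reads was 78.7 times higher in scr control (exact 95% interval for counting error 26.4 to 386), and the FDR was 0.0126 (edgeR). The call was lost without knockdown library 50-2 (FDR 0.0584) or 50-5 (FDR 0.0602). Igfals met the filter of the test through scr control library 25-2 alone, so it entered only through a group where it was high. It could not be tested without that library. Htra1, a secreted protease that cleaves IGF binding proteins, had an RPKM of 0.715 in wt, 0.167 and 0.258 in scr control, and 8.12, 8.52 and 12.6 in knockdown. Its log2 fold change was 5.50 (SE 0.398, FDR 0.00508, edgeR).

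Igf2bp2, an RNA-binding protein gene named for its binding to Igf2 mRNA, had an RPKM of 4.91 in wt, 3.46 and 2.25 in scr control, and 9.45, 10.8 and 11.4 in knockdown. Its log2 fold change was 1.87 (SE 0.240, FDR 0.0133, edgeR), with the call lost without any 1 knockdown library (FDR 0.0537 to 0.0724). The most expressed genes of the list were binding proteins. Igfbp1 had an RPKM of 895 in wt, 579 and 907 in scr control, and 281, 120 and 72.3 in knockdown, and although the groups did not overlap, its log2 fold change of -2.25 was not called (FDR 0.0605, edgeR). DESeq2 called it (FDR 0.000289), as did edgeR without knockdown library 25-3 (log2 fold change -2.97, FDR 0.0424) and with wt added to scr control (FDR 0.0233). With other single libraries left out it was -2.52 to -1.89 and not called. Igfbp4 (log2 fold change -0.03, FDR 0.955) and Igfbp3 (-0.09, FDR 0.915) overlapped between groups.

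**Figure D4:**
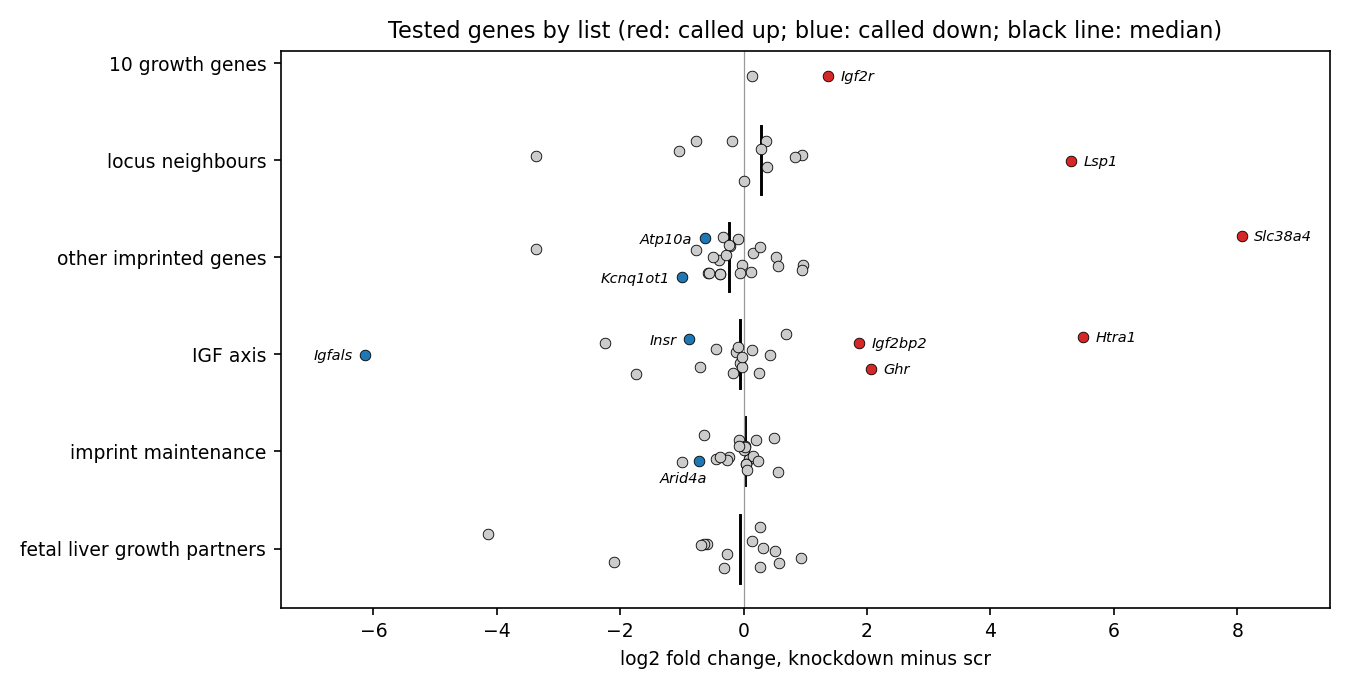
Log2 fold change of knockdown against scr control (horizontal axis) of every tested gene of the 10 growth genes and the 5 further lists (rows, with points spread vertically for sight); red is called up, blue called down, grey not called, and the black line the median of a list. Igf2r is the called growth gene, and the widest called changes belong to Slc38a4 at 8.07 and Igfals at -6.13, where 1 group had only a few reads.

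Factors that keep imprints in place were read next. Of 28 listed genes for DNA methylation, imprint recognition and repressive chromatin, 21 were tested, 0 were called up and 1 down, against 10.6% called in either direction over all tested genes, and the median log2 fold change was 0.02. DESeq2 called 3 of them. The called gene was Arid4a, a chromatin protein that acts on the imprinted Snrpn region, with an RPKM of 11.3 in wt, 9.55 and 11.5 in scr control, and 6.36, 6.74 and 6.12 in knockdown. Its log2 fold change was -0.73 (SE 0.135, FDR 0.0303, edgeR), and the call was lost without scr control library 50-1 (FDR 0.0615) or any 1 knockdown library (FDR 0.0994 to 0.119). Dnmt1, the maintenance DNA methyltransferase gene, had an RPKM of 53.8 in wt, 50.97 and 54.6 in scr control, and 61.9, 59.3 and 61.9 in knockdown. Its log2 fold change was 0.20 (95% interval -0.09 to 0.49, FDR 0.303), and it was not called. Trim28, the corepressor that ZFP57 recruits, had a log2 fold change of -0.07 (95% interval -0.42 to 0.28, FDR 0.774), and Hells, a chromatin remodeler, of 0.06 (95% interval -0.48 to 0.60, FDR 0.882).

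Fetal liver genes that accompany H19, Igf2 and Dlk1, together with the Notch genes related to Dlk1, made a list of 19. Of these, 14 were tested and 0 were called by edgeR, 4 had an unadjusted p under 0.05 and DESeq2 called 2, against 31.5% and 20.1% of all tested genes, and the median log2 fold change was -0.07. Afp, the fetal albumin-like protein gene, had an RPKM of 1430 in wt, 302 and 533 in scr control, and 212, 50.9 and 33.2 in knockdown, and its log2 fold change of -2.10 was not called (FDR 0.143), but was without knockdown library 25-3 (-3.33, FDR 0.0411). With other single libraries left out it was -2.43 to -1.63 and not called. Gpc3, an oncofetal proteoglycan gene, had an RPKM of 91.9 in wt, 13.8 and 173 in scr control, and 3.64, 0.914 and 11.3 in knockdown. Its scr control values differed widely from each other, and its log2 fold change of -4.14 was not called by edgeR (FDR 0.0983) but was by DESeq2 (FDR 0.0303) and without scr control library 25-2 (-5.03, FDR 0.0302), a fit that leaves 1 scr control library and takes that library's spread from the knockdown group. Without scr control library 50-1 it was -1.40 (FDR 0.426), and without knockdown library 50-5 it was -5.37 (FDR 0.131). Myc had a log2 fold change of 0.27 (FDR 0.371). Unlike Dlk1, which had 0 reads, Afp was thus expressed in all 6 libraries.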

How the data were processed

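RNA-seq of 6 Hepa1-6 libraries (1 wt, 2 scr control, 3 midnolin knockdown) was analyzed. Per the submitters' processing notes, base calls were converted with bcl2fastq 2.18.0.12, and reads were aligned to mm10 with TopHat2 and counted per gene with HTSeq 0.6.1p1. The authors deposited raw counts per gene, and RPKM on library sizes that edgeR had scaled by TMM. The strand setting and the handling of reads over overlapping genes are not given in the sources used here. In each library, every RPKM was checked to equal its count per exon kilobase times the same constant. Of the library columns, 0 were left unmatched.

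Samples were grouped from the labels alone, with all 3 knockdown libraries together. Counts were tested with edgeR 4.0.16 in R 4.3.3 (quasi-likelihood test, TMM, Benjamini-Hochberg adjustment over the 11577 genes whose RPKM passed 1 in any of the 5 libraries), with calls at an FDR under 0.05 and at least 1.5-fold. The common biological coefficient of variation was 0.272. The test was run on simulated counts first. Alternatives were DESeq2 1.42.0, other size factors and filters, limma 3.58.1 on log2 RPKM with pseudocounts of 0.1 and 1, wt added to scr control, the title numbers 25 and 50 as a term, and each library left out in turn.

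The 10 genes, the 5 further lists and the markers were chosen with earlier results of these data known, so no list was tested as a set. Named were all 10 genes, the called genes of each list (at most 6), the 3 most expressed genes of each list, rows between the ends of each locus, Midn, and the 3 genes most correlated with the highest growth gene. Airn, Igf1r, Igf1, M6pr, Phactr2, single markers and the genes at 0 reads were named beyond that rule. Promoter sequences came from RefSeq (GRCm38.p6) and exon overlaps from GENCODE M21. Limits are 3 reads per library. Python 3.11.15 with pandas 2.3.3 and matplotlib 3.10.9 made the tables and plots.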

Additional observations from a re-analysis of the deposited data

How the results depend on the processing

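Igf2r kept its direction in 14 of 14 alternatives and its call in 12, with log2 fold changes of 1.30 to 1.46 when single libraries were left out and 0.90 with limma on log2(RPKM + 1). It was not called without knockdown library 25-3 or 50-2. Of the 15 genes called and named, Midn and those most like Igf2r included, Adh7, Htra1 and Slc38a4 were called under every alternative run for them. These 3 met the filter only through knockdown libraries, where they were high, so a difference was needed for them to be tested. Adh7 was also picked by its correlation with Igf2r. For these 3 and for Midn, the alternatives were DESeq2, other size factors, wt added to scr control, and each library left out. Among those, Midn was lost only without knockdown library 50-2 (log2 fold change -1.38, FDR 0.0525). The genes called over the whole table numbered 2322 with DESeq2, 807 with the title numbers as a term, and 131 to 2273 when single libraries were left out, against 1230, with 2273 without scr control library 25-2, and 259, 131 and 346 without knockdown library 25-3, 50-2 and 50-5. Those fits hold fewer libraries. With DESeq2, which called 20.1% of all tested genes, 3 of 11 neighbors, 5 of 25 other imprinted genes, 8 of 19 IGF axis genes, 3 of 21 imprint maintenance genes and 2 of 14 fetal liver genes were called. With wt added to scr control, 1648 genes were called over the whole table, among them 2 neighbors, 3 other imprinted genes (2 up and 1 down), 7 IGF axis genes (3 up and 4 down) and 3 imprint maintenance genes. When single libraries were left out, calls ran from 0 to 1 among the 10 growth genes, 0 to 5 among neighbors, 1 to 8 among other imprinted genes, 1 to 7 among IGF axis genes, 0 to 2 among imprint maintenance genes and 0 to 2 among fetal liver genes. Set against scr control library 50-1 alone, wt differed by 1.5-fold in 1 of the 2 growth genes that met the filter, Igf2.

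Among log2 fold changes, that of Igf2 turned to -0.0044 with wt added to scr control, -0.70 without scr control library 50-1 and -0.71 without knockdown library 25-3, and it reached 2.47 without scr control library 25-2. Genes not called in the main comparison that changed sign were Sf3b5 (-0.070), Gnas (0.039), Igfbp4 (0.57) and Hells (-0.20) without scr control library 50-1, Igfbp3 without scr control library 25-2 (0.22) or knockdown library 50-5 (0.23), Hells without knockdown library 25-3 (-0.037), M6pr without scr control library 25-2 (-0.045), and Trim28 (0.044) and Hells (-0.079) with wt added to scr control. Their other ends with single libraries left out were 0.77 for Sf3b5, -0.13 for Gnas, -0.45 for Igfbp4, -0.58 for Igfbp3, 0.38 for M6pr and 0.39 for Hells. Igfals had no value without scr control library 25-2, where it missed the filter. Except where stated, the cause was not tested. No paired analysis was possible because no full replicate name, such as 25-2, occurs in both groups. The title numbers 25 and 50 do occur in both, unexplained by the labels, and the fit with them as a term is the one given above, in which Igf2r remained called (FDR 0.0274). At this depth, a level under 3 reads in a library was not detectable. The filter on RPKM left 8 of the 10 growth genes without a test, and without that filter Grb10 (FDR 0.737) and H19 (FDR 0.997) were tested and not called.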
